A study of Mus musculus with 6 samples.

Results

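The CDK inhibitors Cdkn1a, Cdkn1b, Cdkn1c, Cdkn2c and Cdkn2d, the D cyclins Ccnd1, Ccnd2 and Ccnd3, and their kinases Cdk4 and Cdk6 were followed in MLL-AF9 cells after vehicle or DS-5272. These 10 genes were taken by name from 26082 gene names. Of them, 9 had an entry of their own and 7 reached a mean of 1 FPKM (fragments mapped, scaled to transcript length and library size) over the 6 samples, the level required for testing. Ccnd1 and Ccnd2 were below that level, and Cdkn2c lay in an entry that it shares with a neighbouring gene.

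RNA-Seq was performed on GFP+ leukemia cells that had been sorted from bone marrow, 3 samples after vehicle and 3 after DS-5272, an inhibitor of the p53-MDM2 interaction given by mouth at 80 mg/kg. The cells were collected 24 h after dosing in both groups. In all samples the leukemia came from C57BL/6J c-Kit+ progenitors that carried MLL-AF9 from a retroviral vector with GFP, and it had been passed through serial transplantation before injection into recipients that were not irradiated. The model is therefore a transplanted line with the fusion under a viral promoter. The age of the mice and whether samples shared a litter or a transduction are not given in the sources used here. The labels do not tie each sample to 1 mouse, so p-values measure the spread between these samples.

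D cyclins bind CDK4 and CDK6, and the active complexes phosphorylate RB, which then releases E2F factors that drive entry into S phase. The INK4 proteins, Cdkn2c (p18) and Cdkn2d (p19) among them, bind CDK4 and CDK6 alone, whereas the CIP/KIP proteins Cdkn1a (p21), Cdkn1b (p27) and Cdkn1c (p57) bind cyclin-CDK complexes and block CDK2 in particular. Cdkn1a is a classical p53 target gene. Cyclin D3 and CDK6 are prominent in blood cells, and CDK6 has a known role in leukemia driven by MLL fusions.

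The estimated depth ranged from 37.2 to 47.2 M fragments in vehicle samples and from 25.2 to 34.8 M in DS-5272 samples. The first principal component held 75.9% of the variance and separated the groups. Myeloid markers were present in all samples, with a summed level of 2404 to 2839 FPKM after vehicle and 7967 to 10925 FPKM after DS-5272 over the 9 of 11 listed genes with an entry of their own. Most of the sum after DS-5272 was Lyz2, at 889 to 1127 FPKM after vehicle and 6108 to 8815 FPKM after DS-5272. Mpo (140 to 325 and 3.25 to 12.2 FPKM) and Kit (30.5 to 45.0 and 4.94 to 12.1 FPKM) were lower after DS-5272. Of the 9 genes, 4 rose and 2 fell (limma, adjusted p under 0.05), beside 24.2% and 22.0% of all tested genes. T cell, B cell and NK cell marker sums stayed at or below 6.60 FPKM in each sample. T cell sums (2.80 to 3.07 FPKM after vehicle and 4.19 to 6.60 FPKM after DS-5272) were apart between the groups. So were NK cell sums (1.40 to 2.31 and 2.70 to 3.93 FPKM), both highest in DS-5272 replicate 1. B cell sums overlapped (4.65 to 5.48 and 3.91 to 5.79 FPKM). Macrophage markers (9 of 10 genes with an own entry) summed to 59.2 to 112 FPKM after vehicle and 138 to 429 FPKM after DS-5272, and erythroid markers (8 of 10, Car1 at 0) to 2.53 to 4.70 and 12.8 to 147 FPKM, both highest in DS-5272 replicate 1. Vcam1, at 36.6 to 82.8 FPKM after vehicle and 74.8 to 143 FPKM after DS-5272, was most of the macrophage sum except in DS-5272 replicate 1. The paper reports a rise of VCAM-1 in c-Kit+ cells after DS-5272. Stroma and endothelium markers (12 of 12) summed to 29.3 to 60.7 and 73.5 to 113 FPKM, most of it Pecam1, and megakaryocyte markers (6 of 7) to 1.68 to 2.1 and 4.38 to 7.26 FPKM, likewise apart between the groups and highest in DS-5272 replicate 1. The part of any of these cells in the changes below was not tested. In sorted bulk cells, fewer cells of a type and less RNA per cell cannot be told apart.

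Promoter sequences were available for 7 of the 10 genes in RefSeq (GRCm38.p6), each as a window from 250 bases before to 50 bases after an annotated start. 2 windows are shown because their motifs concern p53, the protein that DS-5272 frees from MDM2, and MYC, whose mRNA fell. The first is the upstream of 2 starts of Cdkn1a on the plus strand, chr17:29090729-29091028, with a full p53 site in capitals. The second is Cdk4 on the plus strand, chr10:127063285-127063584, with CACGTG, the E-box bound by MYC and other factors, in capitals.
Cdkn1a: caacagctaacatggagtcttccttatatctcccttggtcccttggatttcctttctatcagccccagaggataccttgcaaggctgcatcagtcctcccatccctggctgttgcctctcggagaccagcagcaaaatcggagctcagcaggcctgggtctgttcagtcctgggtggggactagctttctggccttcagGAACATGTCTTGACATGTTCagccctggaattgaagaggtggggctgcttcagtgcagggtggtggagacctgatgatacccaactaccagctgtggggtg
Cdk4: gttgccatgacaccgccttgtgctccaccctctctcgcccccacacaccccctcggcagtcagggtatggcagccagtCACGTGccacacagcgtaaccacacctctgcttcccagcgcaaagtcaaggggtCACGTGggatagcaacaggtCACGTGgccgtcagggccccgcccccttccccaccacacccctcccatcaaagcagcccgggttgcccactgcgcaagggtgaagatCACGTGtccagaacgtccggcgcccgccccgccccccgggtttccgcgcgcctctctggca
The p53 site of Cdkn1a, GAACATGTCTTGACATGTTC at chr17:29090928-29090947, had 1 mismatch in 20 bases to the consensus, and 31 bases lay between it and the start. Only 22 of 32851 promoter windows (0.0670%) held a full p53 site with at most 1 mismatch and no spacer, and none of the other member windows did. CACGTG stood 4 times in the Cdk4 window. At least 1 copy was in 7.15% of all windows, and at least 3 copies in 0.0883%.
Cdk6 and Cdkn2c held CACGTG as well, so that 3 of the 7 genes with a window had it. Cdkn1a, Cdkn2c and Ccnd3 had more than 1 window, and a gene was counted if any of its windows matched. The percentages are over single windows, so the gene counts are not on the same footing. The GC box GGGCGG was in 6 of 7 genes, in 35.7% of all windows. The E2F motif TTTNNCGC was found in Cdk6 and in 5.17% of all windows, and the cell cycle motif TTTGAA in none of the 7 and in 17.9% of all windows. Both strands were read, and no match in these windows overlapped a match of another motif. These matches describe letters and do not show binding.

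After DS-5272, Ccnd3 and Cdkn1b rose and Cdk4 and Cdkn1c fell, while Cdkn1a, Cdkn2d and Cdk6 did not pass the threshold (adjusted p under 0.05, limma over 11130 genes). The 4 of 7 tested genes called stand beside 46.3% of all tested genes, that is 24.2% upregulated and 22.0% downregulated. The groups did not overlap in 6 of the 7, against 61.8% of all tested genes. Both counts are read against those shares of all genes, and the description rests on the values of each gene. In same-numbered pairs of samples, 6 of the 9 genes with an entry were higher in all 3 pairs and 3 were lower in all 3. The 6 include Ccnd1 and Ccnd2, which were below the level for testing. This count was not made over all genes, so it is not read as a trait of these genes. With the replicate number as a block, 4 genes were upregulated and 3 downregulated, all 7 tested, beside 55.1% of all genes (30.3% upregulated and 24.9% downregulated). The block was used because same-numbered samples deviated together, most strongly those of replicate 1, as judged from these same values. Fold changes were computed from log2(FPKM + 1), so that those of low genes are understated, and are given with their standard error (SE).

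**Figure D1:**
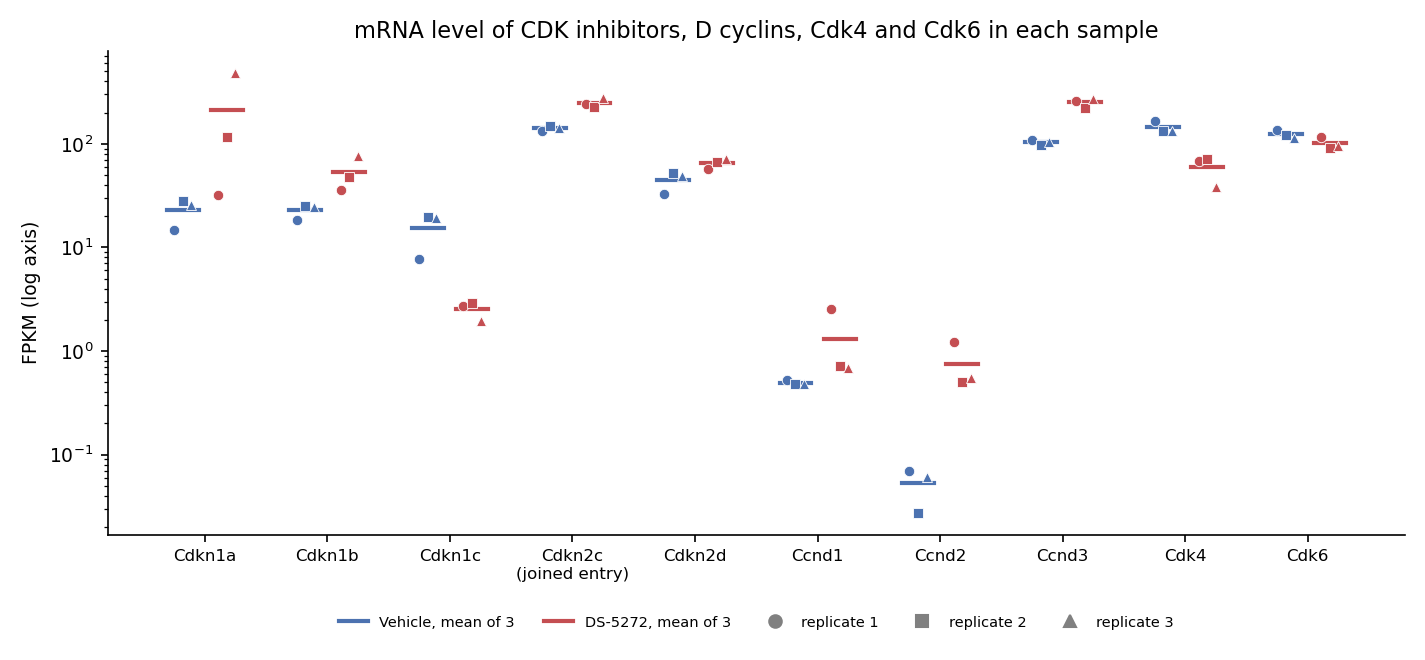
Expression of each gene in every sample, in FPKM on a log axis, with the 3 vehicle and 3 DS-5272 samples as points (circle, square and triangle for replicates 1, 2 and 3) and group means as bars. Cdkn1a spans 32.3 to 485 FPKM after DS-5272, and Cdk6 is the one gene with its own entry whose groups overlap.

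Among the CIP/KIP inhibitors, Cdkn1a had levels of 14.8, 28.1 and 25.5 FPKM after vehicle and of 32.3, 117 and 485 FPKM after DS-5272, in the order of replicates 1, 2 and 3 here and throughout. All DS-5272 samples lay above the vehicle samples, but replicate 1 only just, and replicate 3 far above the others. The highest DS-5272 value was 15.0 times the lowest, compared with 1.90 times among vehicle samples. The mean was 22.8 ± 7.06 FPKM after vehicle and 211 ± 241 FPKM after DS-5272 (SD, n = 3 each), a log2 fold change of 2.43 (SE 0.89, 95% interval 0.31 to 4.55). Cdkn1a did not pass the threshold (limma, adjusted p = 0.0611), and it passed with the replicate block (limma, adjusted p = 0.0137). The DS-5272 to vehicle ratios within pairs 1, 2 and 3 were 2.19, 4.17 and 19.1. The log2 fold change was 1.45 when DS-5272 replicate 3 was left out and 3.38 when DS-5272 replicate 1 was left out (limma, adjusted p = 0.0109). Cdkn1a spans chr17:29090976-29100727 on the plus strand, and the FPKM values do not separate its starts.

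Cdkn1b, which encodes p27 and restrains CDK2 in resting cells, was at 18.4, 25.2 and 24.5 FPKM after vehicle and at 35.8, 47.8 and 77.0 FPKM after DS-5272. Each DS-5272 sample was above each vehicle sample, and replicate 3 was again highest. Cdkn1b rose from 22.7 ± 3.75 to 53.5 ± 21.2 FPKM (SD, n = 3 each), a log2 fold change of 1.14 (SE 0.28, limma adjusted p = 0.0163). The ratio was 1.94 and 1.89 in pairs 1 and 2 and 3.14 in pair 3. The call was lost when vehicle replicate 1 was left out (log2 fold change 1.0, limma adjusted p = 0.0548). The gene lies at chr6:134920401-134925513 on the plus strand.

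Cdkn1c encodes p57, the CIP/KIP protein linked to quiescence of blood stem cells, and is expressed from the maternal allele. It was at 7.76, 19.5 and 19.4 FPKM after vehicle and at 2.74, 2.92 and 1.95 FPKM after DS-5272. The groups were apart in the direction opposite to Cdkn1a and Cdkn1b, with vehicle replicate 1 lowest of its group. Cdkn1c fell from 15.6 ± 6.75 to 2.54 ± 0.517 FPKM (SD, n = 3 each), to 0.163 times the vehicle mean, with a log2 fold change of -2.13 (SE 0.34, limma adjusted p = 0.0049). In pairs 1, 2 and 3 the DS-5272 level was 0.35, 0.15 and 0.10 times that of vehicle. By level, the gene moved from the 53.4th to the 12th percentile of tested genes, whereas Cdkn1a moved from the 64.9th to the 96.2nd. Cdkn1c is at chr7:143458339-143461050 on the minus strand, where the antisense gene Gm44732 overlaps an exon.

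Of the INK4 inhibitors, Cdkn2d was at 32.7, 52.2 and 49.2 FPKM after vehicle and at 56.7, 66.7 and 71.9 FPKM after DS-5272. The groups did not overlap, although vehicle replicate 2 and DS-5272 replicate 1 were close. The means were 44.7 ± 10.5 and 65.1 ± 7.72 FPKM (SD, n = 3 each), with a log2 fold change of 0.56 (SE 0.19, 95% interval 0.09 to 1.02, limma adjusted p = 0.0537), and limma with the replicate block gave an adjusted p = 0.0096. Rescaling each sample to a common FPKM total brought the log2 fold change to 0.29 and leaving out vehicle replicate 1 to 0.35. Cdkn2d is at chr9:21288410-21291407 on the minus strand.

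Cdkn2c, the INK4 inhibitor p18, was listed only together with 9630013D21Rik, which lies beside it on the same strand, so the value cannot be assigned to either gene. This joined entry was at 134, 147 and 142 FPKM after vehicle and at 241, 229 and 280 FPKM after DS-5272. The samples of each group were close together and the groups far apart. The entry rose by a log2 fold change of 0.82 (SE 0.11, limma adjusted p = 0.0037), from 141 ± 6.92 to 250 ± 26.7 FPKM (SD, n = 3 each), and its change was 0.48 after quantile normalization. Cdkn2c itself spans chr4:109660876-109667189 on the minus strand.

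The mixture of inhibitor transcripts differed between samples. As a share of the summed FPKM of Cdkn1a, Cdkn1b, Cdkn1c and Cdkn2d, Cdkn1a made up 20.1%, 22.5% and 21.5% after vehicle and 25.3%, 49.9% and 76.3% after DS-5272. The vehicle shares were nearly alike, and the DS-5272 shares ran from just above them to most of the sum (difference of means 29.2 percentage points, two-sided exact permutation p = 0.1). Without DS-5272 replicate 3 the difference was 16.3 points. With the joined Cdkn2c entry in the sum it was 19.9 points (exact permutation p = 0.3), so the separation of the Cdkn1a shares depends on leaving that entry out. Cdkn1c made up 10.5%, 15.6% and 16.4% after vehicle and 2.15%, 1.25% and 0.306% after DS-5272, also without overlap (difference of means -12.9 points, exact permutation p = 0.1), and with the joined Cdkn2c entry in the sum the difference was -5.59 points. With 3 samples against 3, 0.1 is the smallest p this test allows.
Cdkn2d, the largest component after vehicle at 41.5% to 44.4%, made up 44.5%, 28.5% and 11.3% after DS-5272. Its share in DS-5272 replicate 1 was thus at the level of vehicle, and the difference of means was -14.4 points (exact permutation p = 0.4). It was -6.06 points without DS-5272 replicate 3, -22.6 points without DS-5272 replicate 1 and -5.37 points with the joined entry in the sum (exact permutation p = 0.1). Cdkn1b had a share of 20.2% to 25% after vehicle and of 12.1% to 28.1% after DS-5272, with overlapping groups (difference of means -1.78 points, exact permutation p = 0.8), and the sign of this difference turned without DS-5272 replicate 3 (2.26 points) or with the joined Cdkn2c entry in the sum (0.297 points).

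Of the D cyclins, Ccnd3 was at 109, 97.2 and 104 FPKM after vehicle and at 260, 220 and 272 FPKM after DS-5272. Samples of a group were close together and the groups were well apart. Ccnd3 rose from 103 ± 5.93 to 251 ± 27.3 FPKM (SD, n = 3 each), a log2 fold change of 1.27 (SE 0.12, 95% interval 0.99 to 1.55, limma adjusted p = 0.0012). The 3 pairs gave similar ratios of 2.39, 2.27 and 2.63. Over all alternative settings the log2 fold change stayed between 0.94 and 1.36. Ccnd3 spans chr17:47505051-47599691 on the plus strand, and an exon overlaps Bysl on the opposite strand, which was at 15.8 to 19.4 FPKM.

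Ccnd2 was nearly silent after vehicle, at 0.0694, 0.0275 and 0.0610 FPKM, and at 1.22, 0.501 and 0.544 FPKM after DS-5272. All DS-5272 samples were above all vehicle samples, with replicate 1 highest. From the estimated depth, these values stand for about 21, 6.5 and 16 fragments after vehicle and 270, 96 and 87 after DS-5272. The mean after DS-5272 was 14.3 times that after vehicle, and in a fit without the filter on low values Ccnd2 had a log2 fold change of 0.71 (SE 0.15, limma adjusted p = 0.0223). Ccnd2 is at chr6:127125162-127152193 on the minus strand, where 9330179D12Rik, an antisense gene of at most 0.0505 FPKM, overlaps an exon. The antisense gene Gm43126 overlaps an exon of Ccnd2 as well.
Ccnd1 was at 0.523, 0.478 and 0.484 FPKM after vehicle and at 2.53, 0.720 and 0.684 FPKM after DS-5272. Its groups did not overlap, but DS-5272 replicates 2 and 3 were only slightly above vehicle (fit without the filter, log2 fold change 0.54, SE 0.30, limma adjusted p = 0.232). Ccnd1 and Ccnd2 were highest in DS-5272 replicate 1, the sample with the highest macrophage (429 FPKM) and erythroid (147 FPKM) marker sums, and the part of those cells in both values was not tested. Ccnd1 is at chr7:144929931-144939925 on the minus strand, where the protein-coding gene LTO1 on the opposite strand overlaps an exon.

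Ccnd3 made up nearly all D cyclin transcript in both groups, with 99.5% in each vehicle sample and 98.6%, 99.4% and 99.6% after DS-5272 (difference of means -0.280 points, exact permutation p = 0.7). The share of Ccnd2 was 0.0632%, 0.0281% and 0.0585% after vehicle and 0.460%, 0.226% and 0.199% after DS-5272, without overlap (difference of means 0.245 points, 0.162 without DS-5272 replicate 1, exact permutation p = 0.1 with all samples). The share of Ccnd1 was 0.477%, 0.489% and 0.464% after vehicle and 0.960%, 0.325% and 0.250% after DS-5272 (difference of means 0.0348 points, exact permutation p = 1). It was thus above vehicle in DS-5272 replicate 1 and below it in the other two, and without replicate 1 the differences became -0.189 points for Ccnd1 and 0.0269 points for Ccnd3.

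Of the kinases, Cdk4 was at 166, 131 and 134 FPKM after vehicle and at 68.4, 71.9 and 38.1 FPKM after DS-5272. No DS-5272 sample came near the vehicle samples, and replicate 3 was lowest. Cdk4 fell from 144 ± 19.4 to 59.4 ± 18.6 FPKM (SD, n = 3 each), to 0.413 times the vehicle mean, with a log2 fold change of -1.31 (SE 0.25, limma adjusted p = 0.0079). Within pairs it was 0.411, 0.547 and 0.284 times vehicle. Cdk4 is at chr10:127063534-127067920 on the plus strand and shares exon sequence with Tspan31 on the opposite strand, which was higher after DS-5272 (53.8 to 71.4 FPKM) than after vehicle (36.3 to 44.3 FPKM), and counting is not stated to use strand.

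Cdk6, the second kinase of D cyclins, was at 137, 122 and 114 FPKM after vehicle and at 117, 92.0 and 95.1 FPKM after DS-5272. The groups overlapped, since DS-5272 replicate 1 was above vehicle replicate 3. The means were 125 ± 11.6 and 101 ± 13.4 FPKM (SD, n = 3 each), with a log2 fold change of -0.30 (SE 0.13, 95% interval -0.61 to 0.01, limma adjusted p = 0.0988). Cdk6 passed the threshold with the replicate block (limma, adjusted p = 0.0314), after quantile normalization (log2 fold change -0.58, limma adjusted p = 0.0357) and without DS-5272 replicate 1 (log2 fold change -0.41, limma adjusted p = 0.0321). Cdk6 spans chr5:3341485-3531008 on the plus strand.

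**Figure D2:**
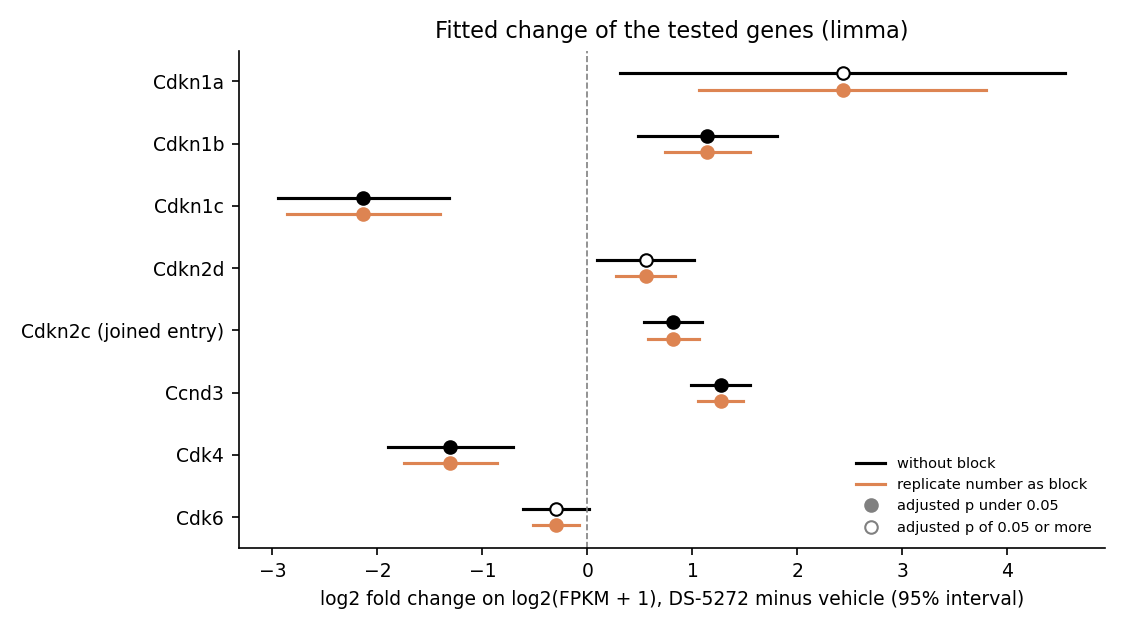
Log2 fold change of DS-5272 against vehicle for each tested gene and the joined Cdkn2c entry, with 95% intervals, without the block (black) and with the replicate number as a block (orange), filled where the adjusted p is under 0.05. Ccnd3 (1.27) and Cdkn1b (1.14) lie above 0, Cdk4 (-1.31) and Cdkn1c (-2.13) below it, and the interval of Cdkn1a (0.31 to 4.55) is the widest.

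The order of levels differed between the groups. After vehicle it ran from Cdk4 through the joined Cdkn2c entry, Cdk6, Ccnd3, Cdkn2d, Cdkn1a, Cdkn1b, Cdkn1c and Ccnd1 to Ccnd2, and neighbours overlapped at Cdk4 and the joined entry, the joined entry and Cdk6, Cdkn1a and Cdkn1b, and Cdkn1b and Cdkn1c. After DS-5272 it ran from Ccnd3 through the joined entry, Cdkn1a, Cdk6, Cdkn2d, Cdk4, Cdkn1b, Cdkn1c and Ccnd1 to Ccnd2. There, Ccnd3, the joined entry, Cdkn1a and Cdk6 overlapped from neighbour to neighbour, as did Cdkn2d, Cdk4 and Cdkn1b, and Cdkn1c, Ccnd1 and Ccnd2.
Cdk6 was below Cdk4 in each vehicle sample, with log2 ratios of -0.28, -0.10 and -0.23, and above it in each DS-5272 sample, with 0.77, 0.36 and 1.32. The ratio, 0.868 after vehicle and 1.76 after DS-5272 on the linear scale, differed by 1.02 on the log2 scale (exact permutation p = 0.1). Cdk4 thus had the higher FPKM of the 2 kinases in every vehicle sample, and Cdk6 in every DS-5272 sample. FPKM depends on the transcript length assumed for each gene (longest transcripts 2053 nt for Cdk4 and 11525 nt for Cdk6). Which transcript was more abundant within a group was therefore not tested.
D cyclin transcript summed to 97.8 to 110 FPKM after vehicle and 222 to 274 FPKM after DS-5272, and Cdk4 and Cdk6 together to 248 to 303 and 133 to 185 FPKM. Neither sum overlapped between groups. The 4 inhibitors with an own entry summed to 73.6, 125 and 119 FPKM after vehicle and 128, 234 and 636 FPKM after DS-5272. Relative to the D cyclins, Cdk4 and Cdk6, their log2 ratio was -2.49, -1.49 and -1.57 after vehicle and -1.82, -0.72 and 0.64 after DS-5272. The groups overlapped, since DS-5272 replicate 1 was below vehicle replicates 2 and 3 (difference of means 1.22, exact permutation p = 0.3). Within same-numbered pairs the DS-5272 sample was higher in all 3 (exact sign-flip p = 0.25, the smallest that 3 pairs allow). The difference was 0.58 without DS-5272 replicate 3, and 0.98 with the joined Cdkn2c entry among the inhibitors (exact permutation p = 0.1).

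**Figure D3:**
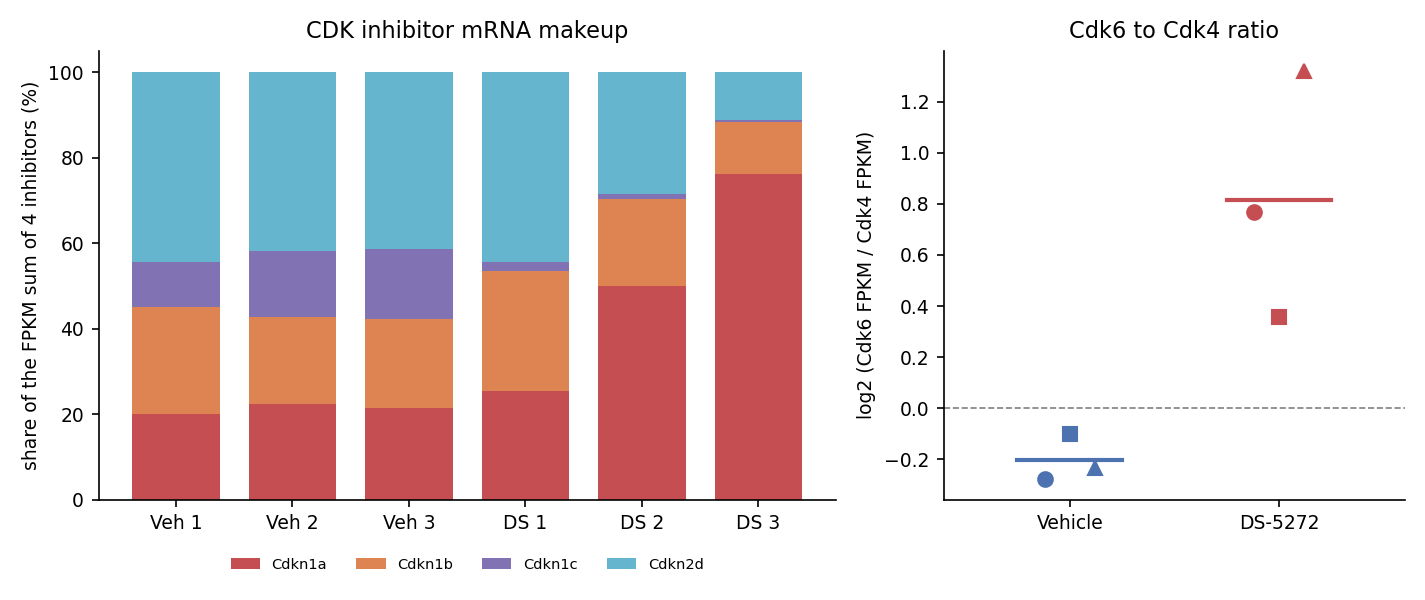
Share of each inhibitor in the summed FPKM of the 4 inhibitors in percent for each sample (left, Veh for vehicle and DS for DS-5272) and the log2 ratio of Cdk6 to Cdk4 with group means as bars (right). The Cdkn1a share runs from 25.3% to 76.3% after DS-5272, and the Cdk6 to Cdk4 ratio is above 0 in each DS-5272 sample.

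Among the other genes of this pathway, those acting after the D cyclins were mostly lower after DS-5272. Of 12 tested genes for cyclins E, A and B, CDK1, CDK2 and their activators, 11 fell and 0 rose, beside 22.0% and 24.2% of all tested genes, and their median change was -1.83 (log2), against 0.04 over all tested genes. The mitotic cyclins Ccnb2 (-3.33, SE 0.73) and Ccnb1 (-2.83, SE 0.62) and the S phase cyclin Ccna2 (-2.76, SE 0.66) fell the most. All 8 proliferation markers fell (median -2.20), led by Top2a (-2.36), Mcm5 (-2.28) and Mcm2 (-2.25). Among the DS-5272 samples all 8 were lowest in replicate 3, as were 26.5% of all tested genes.
Of 13 RB and E2F genes, 8 fell and 1 rose, read, like the smaller lists that follow, against 22.0% and 24.2% of all tested genes. E2f7 (-1.82) and E2f8 (-1.28), repressors of the family, and the RB relative Rbl1 (-1.35) fell, and the activator E2f2 (0.37) rose. In the DREAM and MuvB complex, which represses cell cycle genes in resting cells, 3 of 4 tested genes fell, Lin9 (-1.08), Rbbp4 (-0.75) and Lin52 (-0.37). Of the 3 parts of the CDK-activating kinase, Ccnh and Mnat1 fell (-0.37 each).

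Of 15 ubiquitin ligase genes that act on CDK inhibitors and D cyclins, 7 fell and 1 rose (2 with the replicate block), where 22.0% of all tested genes fell and 24.2% rose. Those that fell the most were the mitotic activator Cdc20 (-2.79), Cks1b (-2.13), the partner of SKP2 in the degradation of p27, and Dtl (-1.74), which directs degradation of p21, and Fbxo4, assigned to cyclin D1, rose (0.61). Among other CDK inhibitor and CDK-binding genes, Cdk2ap2 rose (1.78) and Cdkn3 (-2.53) and Cdk2ap1 (-0.69) fell, out of 6 tested, and 4 fell with the replicate block. Of 18 other cyclins and CDKs, 3 rose, Cdk18 (0.73), Cdk17 (0.61) and Cdk5 (0.56), and 0 fell, beside the same 24.2% and 22.0% of all tested genes (5 and 1 with the replicate block, beside 30.3% and 24.9%).
Of 17 transcription factors known to act on these genes, 5 rose and 3 fell (median 0.24), beside 24.2% and 22.0% of all tested genes, and 8 rose with the replicate block, beside 30.3%. Foxo3 (1.24), which activates Cdkn1b, Smad3 (1.30), which mediates TGF-beta signals, and Cebpb (0.94) had the largest rises among the 5. The 3 genes called only with the block were Klf6 (1.29, limma adjusted p = 0.47 without and 0.0123 with the block), Klf4 (1.17, 0.48 and 0.0025) and Klf2 (0.99, 0.63 and 0.0292). Klf6 was at 11.2, 249 and 291 FPKM after vehicle and 55.4, 441 and 521 FPKM after DS-5272, so that replicate 1 was far below replicates 2 and 3 in both groups. Myc, which activates Cdk4 and represses Cdkn1a, was at 49.5, 45.9 and 50.8 FPKM after vehicle and 30.2, 26.1 and 10.3 FPKM after DS-5272 (log2 fold change -1.23, SE 0.36, limma adjusted p = 0.0312). Trp53 itself (-0.91) and the repressor Gfi1 (-0.90) fell too.

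**Figure D4:**
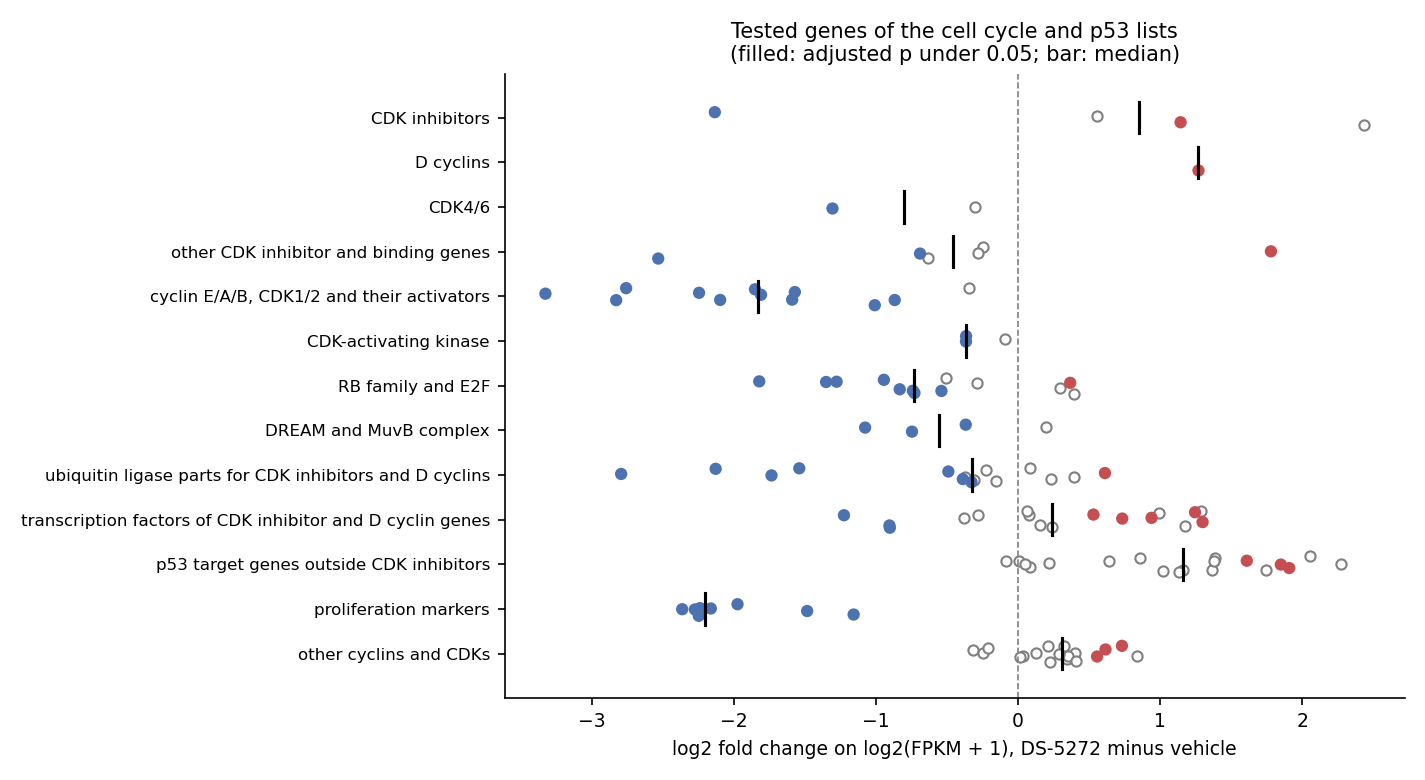
Log2 fold change (DS-5272 against vehicle) of the tested genes in each pathway list, 1 point a gene, filled red or blue where it rose or fell at an adjusted p under 0.05, open otherwise, with the median as a bar. The list of cyclins E, A and B, CDK1, CDK2 and activators has 11 of 12 genes lower, the proliferation markers 8 of 8, and the p53 targets 3 of 19 higher.

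Of 19 tested p53 targets other than CDK inhibitors, 3 rose and 0 fell, where 24.2% of all tested genes rose and 22.0% fell, and their median log2 fold change was 1.16, against 0.04 over all tested genes. With the replicate block 11 of the 19 rose, beside 30.3% of all genes. Sesn2 (1.91, SE 0.33), Trp53inp1 (1.85, SE 0.54) and Fas (1.61, SE 0.36), which act in the stress response, autophagy and death receptor signaling, passed the threshold. Like Cdkn1a, all 19 had their highest DS-5272 value in replicate 3, as did 48.7% of all tested genes. FPKM were not rescaled for this count. The FPKM total was largest in DS-5272 replicate 3 (661184, against 499229 and 579884 in DS-5272 replicates 1 and 2). Some differences were small, as for Ddb2 at 4.44, 4.76 and 4.87 FPKM after DS-5272. Whether all 19 keep this order after rescaling was not tested. Mdm2, the target of DS-5272 and a p53 target gene, was at 27.1, 36.3 and 40.0 FPKM after vehicle and at 42.6, 78.8 and 210 FPKM after DS-5272, the DS-5272 samples in the same order as for Cdkn1a (limma, adjusted p = 0.0733, and 0.0148 with the replicate block).

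**Figure D5:**
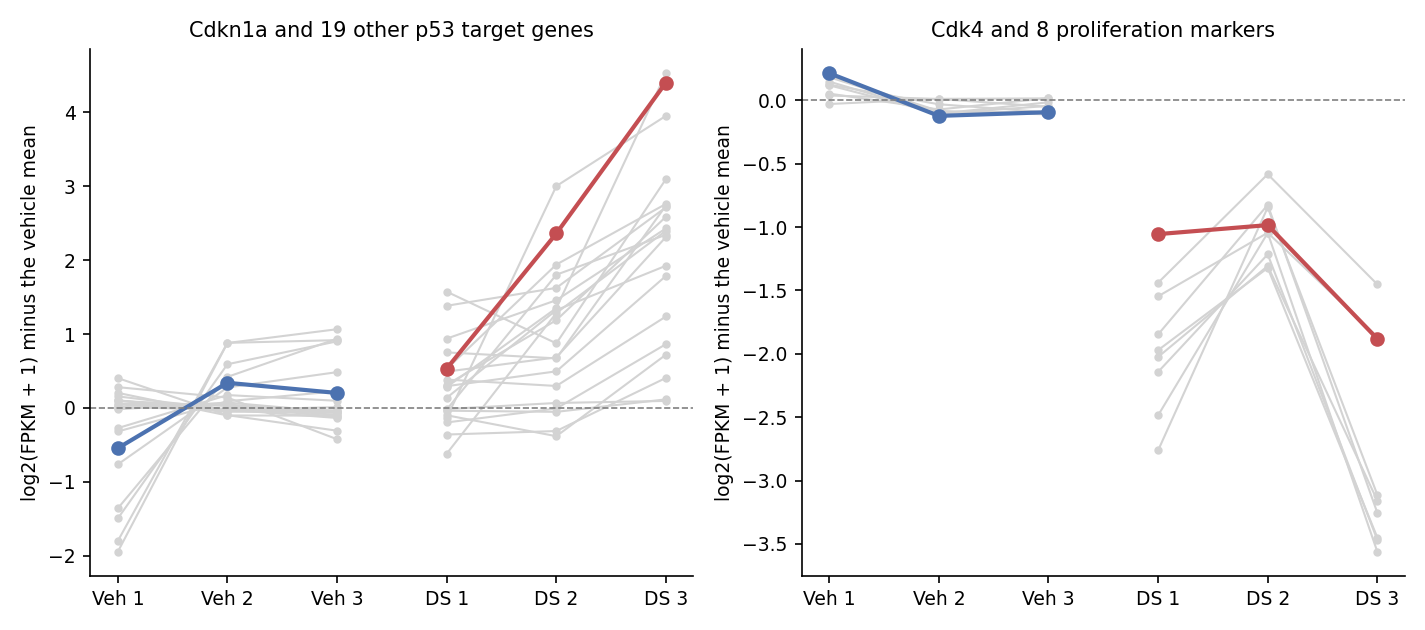
Difference of log2(FPKM + 1) from the vehicle mean in each sample (Veh, vehicle, and DS, DS-5272) for Cdkn1a (colored) and 19 p53 targets (grey, left) and for Cdk4 (colored) and 8 proliferation markers (grey, right), with lines that join the values of 1 gene and imply no order. In these values, which were not rescaled, Cdkn1a and all 19 tested targets are highest in DS-5272 replicate 3 among the DS-5272 samples. Cdk4 and all 8 markers are lowest there.

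The genes most like each member were taken by the root mean square (RMS) difference of their log2(FPKM + 1) profiles over the 6 samples, relative to the vehicle mean. G0s2 (0.229), Retnla (0.265) and Cxcl3 (0.367) were nearest to Cdkn1a, all with a wide range after DS-5272. Ccpg1 (0.0514), Alox5ap (0.0659) and Tiam2 (0.0732) were nearest to Cdkn1b, and Bambi-ps1 (0.334), Mcpt8 (0.380) and Sqle (0.393) to Cdkn1c. The distances for Cdkn1a and Cdkn1c were larger than for Cdkn1b.
Vprbp (0.0585), Rif1 (0.0730) and Ppat (0.0768) were nearest to Cdk4, and Gtf2a1 (0.0295), Ufsp1 (0.0328) and Ireb2 (0.0354) to Cdk6. Wsb2 (0.0787), a joined Ugt1a entry (0.0805) and Tesk1 (0.0885) were nearest to Ccnd3, and Ppard (0.0763), Tmem198b (0.0859) and Ctns (0.0886) to Ccnd2. Osmr (0.0873), Gas2l1 (0.104) and Fzd7 (0.106) were nearest to Ccnd1, each highest in DS-5272 replicate 1 as Ccnd1 was. Ccnd1 and Ccnd2 were below the level for testing, where adding 1 before the log shrinks changes. Their likeness is therefore to genes with smaller ratios of FPKM. Ppard was at 6.62 to 7.36 FPKM after vehicle and 9.84 to 15.1 FPKM after DS-5272, whereas the mean of Ccnd2 after DS-5272 was 14.3 times that after vehicle. Bin3 (0.0730), Atp6v0c (0.0808) and Pisd (0.0837) were nearest to Cdkn2d.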

How the data were processed

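The authors sorted GFP+ leukemia cells, prepared strand-specific libraries and, per the labels and the submitters' processing notes, used cutadapt 1.8.1, FastQC, TopHat2 2.1.1 and Cufflinks 2.2.1 with GRCm38. The deposited values are FPKM, normalized by the authors for transcript length and library size, with no counts. Of 26632 rows, 435 names on several rows were summed, and 433 rows that join genes were kept apart.

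The 11130 genes averaging 1 FPKM or more were fitted as log2(FPKM + 1) with limma 3.58.1 in R 4.3.3 (eBayes with trend, two-sided, Benjamini-Hochberg over all tested genes, threshold 0.05). Shares and ratios were compared by exact permutation. The scripts were tested on simulated data. Depth was estimated from the step that 1 fragment adds to low FPKM values of 570 single-transcript genes, giving its scale only.

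Same-numbered samples deviated together (correlations 0.66, 0.21 and 0.43, against -0.58 to 0.34 for different numbers), so the numbers were taken as pairing the samples. Vehicle replicate 2 deviated more like DS-5272 replicate 3 (0.34) than like DS-5272 replicate 2 (0.21), so pairs 2 and 3 are not clearly set apart. The pairing was judged from the same values that the block then tests, and the labels name no shared litter or batch. Coordinates are from GENCODE M21 (GRCm38). Named genes were all members, the 3 largest called rises and falls of each list, and the 3 nearest profiles per member; Mdm2, Klf2, Klf4 and Klf6 were added after their values were seen. The members and lists were chosen with earlier results of these data known. Alternatives covered the pseudocount, filter, scaling, pairing, variance trend, duplicate names and each left-out sample.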

Additional observations from a re-analysis of the deposited data

How the results depend on the processing

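No tested member changed direction under any of the 16 alternatives. Rescaling to a common FPKM total moved the median log2 fold change of all genes from 0.04 to -0.19 and left 1713 genes upregulated instead of 2697. Leaving out 1 sample gave 1623 to 2934 upregulated and 1389 to 2432 downregulated genes (2451 with all samples), the lowest without vehicle replicate 2, and 1492 were downregulated without vehicle replicate 3. With the replicate block, 4 members were upregulated in place of 2, and leaving out 1 sample gave 1 to 3, the lowest without vehicle replicate 1. With 1 sample left out, the differences in share ran from -0.189 to 0.166 points for Ccnd1 and from -0.459 to 0.0269 points for Ccnd3, changing sign without DS-5272 replicate 1, and from -5.73 to 2.26 points for Cdkn1b, changing sign without DS-5272 replicate 3. The Cdkn1b difference also changed sign with the joined Cdkn2c entry, an alternative chosen after seeing the data (0.297 points). Leaving out 1 sample gave differences of 16.3 to 41.8 points for the Cdkn1a share, -22.6 to -6.06 points for Cdkn2d and 0.58 to 1.81 for the log2 ratio of inhibitors to D cyclins, Cdk4 and Cdk6. The cause was not tested. Among the 7 tested members, the pairing changed the calls of Cdkn1a, Cdkn2d and Cdk6 and of no other. Depth limits Ccnd2 most, which rests on about 21, 6.5 and 16 fragments after vehicle, whereas Ccnd1 had about 92, 67 and 73.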
